A study of Mus musculus with 4 samples.

Results

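The kinesin genes of hematopoietic stem cells (HSCs) were examined with and without *Id2*. The genes are the 36 rows of 19354 in the expression table whose symbol is Kif followed by a digit, or Kifc followed by a digit. Of these, 35 encode kinesin motors and 1, *Kif1bp*, encodes a protein that binds kinesins and is no motor itself. The motors were split by role into 12 mitotic kinesins, 14 transport kinesins and 9 others, and the transport list also holds *Kif1a*, for which no row was used here. The HSCs were sorted as LSK FLT3- CD48- CD150+ bone marrow cells from mice of 8 to 16 weeks. All mice carried *Mx1-Cre*, an interferon-driven Cre transgene that is active in many cells besides HSCs, and all received pIpC, which induces it, 2 weeks before the sort. The controls were Mx1-Cre; Id2+/+ and the other group was Mx1-Cre; Id2Fl/Fl, called Id2Δ/Δ after the deletion. Cells were pooled from 14 Id2+/+ and 15 Id2Fl/Fl mice in 2 experiments, and RNA-Seq gave 2 libraries per genotype, called here replicates 1 and 2. The labels do not say which mice or experiment a library came from, so p-values measure the spread between these libraries, which may be in part technical.

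Kinesins use the energy of ATP to move along microtubules or to take their ends apart. Mitotic kinesins are made mostly in dividing cells, where they push the spindle poles apart, position chromosomes and build the midzone at which the daughter cells separate, whereas transport kinesins carry vesicles, mitochondria and signaling complexes in cells that divide and cells that do not. Adult HSCs are mostly quiescent, and mitotic kinesin RNA is expected mainly in the part of the sorted pool that is in cycle. In RNA from pooled cells, a larger share of cycling cells and more RNA per cycling cell cannot be told apart.

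Values were deposited as log2 CPM (read counts scaled to a common library total), quantile-normalized so that the libraries share 1 distribution. Depth, estimated from the steps between low values, was 14500000 to 18200000 reads. Id2Δ/Δ replicate 1 stood apart, with 606 genes at 0 reads against 170 to 326 in the others, and its correlation with Id2Δ/Δ replicate 2 across genes (Pearson's r 0.942) was below those of all other pairs (0.950 to 0.972). Without this library the mitotic median given below was 0.30 in place of 0.31, and the transport median -0.15 in place of -0.08. *Id2*, the targeted gene, was read 93 and 98 times in Id2+/+ and 0 times in both Id2Δ/Δ libraries. All 10 HSC markers that were looked up were listed. Their summed level was 4714 and 4598 CPM in Id2+/+ and 3312 and 3864 CPM in Id2Δ/Δ libraries, so it was lower in both Id2Δ/Δ libraries. Of 5 markers of progenitors outside the gate, *Cd34*, *Flt3* and *Cd48* were listed, and *Fcgr3* and *Il7r* were not. Their sum, mostly *Cd34*, was 429 and 371 CPM against 406 and 367 CPM, with overlap. Although the sort was for FLT3- CD48- cells, *Flt3* was at 49.4 and 49.3 against 49.7 and 44.4 CPM. *Cd48* was at 8.24 and 3.70 against 2.64 and 3.88 CPM. Summed neutrophil markers, 9 of 10 listed with *Ly6g* not among them, were 282 and 170 CPM in Id2+/+ and 261 and 141 CPM in Id2Δ/Δ libraries, so they were higher in replicate 1 of each genotype and, within a replicate number, lower in the Id2Δ/Δ library. *Camp*, *Lcn2*, *Ltf*, *Ngp*, *S100a8* and *S100a9*, genes of maturing neutrophils, were each lower in Id2Δ/Δ within both numbers. *Elane* was higher within both numbers, with a difference of 1.25 in log2 CPM. *Mpo* (0.65) and *Prtn3* (0.06) were higher on average but only within replicate 1. The median difference of the 9 genes was -1.01 in log2 CPM. For 0 of the 9 were the libraries of the genotypes separated, against 34.8% of all genes tested. Summed megakaryocyte markers, 6 of 6 listed, were 454 and 510 CPM against 513 and 598 CPM. The sum was thus higher without *Id2*, but narrowly, with 513.1 CPM in Id2Δ/Δ replicate 1 against 509.8 CPM in Id2+/+ replicate 2. Its members were divided. *Pf4*, *Gp9* and *Gp1bb* were higher without overlap (19.0% of all genes tested), with differences of 0.65, 0.37 and 0.75 in log2 CPM. *Ppbp* (-0.39) was lower without overlap (15.8% of all genes tested), and *Itga2b* (0.06) and *Vwf* (0.001) overlapped between genotypes. Erythroid markers summed to between 43.9 and 69.9 CPM and overlapped between genotypes, and *Pax5*, *Cd79a*, *Ms4a1*, *Cd3d*, *Cd3e* and *Cd3g* were looked up as lymphocyte markers and were not among the listed genes. The part of these markers in the kinesin results was not tested.

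The promoters of the mitotic kinesins are shown first, because they set this class apart from the transport kinesins independently of the expression values. Many genes of mitosis carry the cell cycle genes homology region (CHR), with the letters TTTGAA or TTTAAA, close to their start, often with CCAAT boxes that bind NF-Y. RefSeq promoter windows on GRCm38.p6 run from 250 bases before to 50 bases after a transcription start, 300 bases in all. They were found for 11 of 12 mitotic kinesins (not *Kif20a*), 10 of 15 genes of the transport list and 7 other kinesins. The stretches below are the last 120 bases before the start, 5′ to 3′, with matches to either CHR form or to CCAAT, on either strand, in capitals. The first group is from mitotic kinesins.
Kif11, chr19:37376262-37376381, plus strand: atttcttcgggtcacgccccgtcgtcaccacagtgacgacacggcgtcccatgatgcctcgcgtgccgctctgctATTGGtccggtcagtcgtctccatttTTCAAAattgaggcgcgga
Kif18b, chr11:102925125-102925244, minus strand: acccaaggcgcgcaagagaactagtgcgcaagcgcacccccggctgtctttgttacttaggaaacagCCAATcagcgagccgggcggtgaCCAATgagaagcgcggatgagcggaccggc
Kif23, chr9:61946800-61946919, minus strand: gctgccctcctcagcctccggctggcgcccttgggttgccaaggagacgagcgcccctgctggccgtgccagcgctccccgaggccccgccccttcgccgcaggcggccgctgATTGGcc
The stretches that follow are from transport kinesins.
Kif1b, chr4:149307734-149307853, minus strand: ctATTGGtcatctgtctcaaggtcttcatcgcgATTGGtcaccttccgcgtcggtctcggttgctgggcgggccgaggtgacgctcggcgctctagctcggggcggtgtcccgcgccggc
Kif1c, chr11:70700428-70700547, plus strand: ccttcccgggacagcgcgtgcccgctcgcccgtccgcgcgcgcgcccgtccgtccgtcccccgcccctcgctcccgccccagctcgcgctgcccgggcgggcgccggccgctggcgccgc
Kif3c, chr12:3365012-3365131, plus strand: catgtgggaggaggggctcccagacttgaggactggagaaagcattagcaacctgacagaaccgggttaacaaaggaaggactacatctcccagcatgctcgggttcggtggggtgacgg
In *Kif11* a CCAAT match on the reverse strand begins 45 bases before the start and a CHR match follows at 19 bases before it. *Kif18b* has CCAAT matches that begin 53 and 30 bases before the start, and its TTTGAA begins 3 bases after it, outside the stretch printed. In *Kif23* the CCAAT match begins 7 bases before and TTTGAA 2 bases after the start. *Kif1b* has CCAAT matches but neither CHR form, and *Kif1c* and *Kif3c* have no match.

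Over both strands of the whole windows, TTTGAA was present in 10 of 11 mitotic kinesin promoters, against 17.9% of all 32851 RefSeq promoters of this length. The mitotic kinesin without it was *Kif18a*. Among the 10 transport genes with a window, only *Kif1a* had the motif, in 1 of its windows, and among the 7 other kinesins only *Kifc5b* had it. CCAAT was found in 7 of 11 mitotic windows, in 3 of 10 transport genes and in 37.4% of all promoters. All 7 mitotic windows with CCAAT also held a CHR match, a combination found in 10.7% of all promoters and in 0 transport genes. TTTAAA, which is its own reverse complement, was in the windows of *Kif14* and *Kif2c*, and in 13.2% of all promoters. E-boxes with the letters CANNTG, to which the E proteins that ID2 restrains can bind, were in 6 of 11 mitotic windows, in 7 of 10 transport genes and in 72.3% of all promoters, so this motif did not mark the mitotic class. The windows differed in base composition as well, with a median GC content of 60.7% in the mitotic and 68.2% in the transport windows, against 52.7% over all promoters. For *Kif14*, *Kif2c* and the transport kinesin *Kif17*, the RefSeq start lies well inside the longer gene that GENCODE annotates. The *Kif1a* window with TTTGAA (chr1:93082431-93082730, minus strand) lies downstream of its other window (chr1:93101825-93102124). A match is a run of letters and not a measured binding site.

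**Figure D1:**
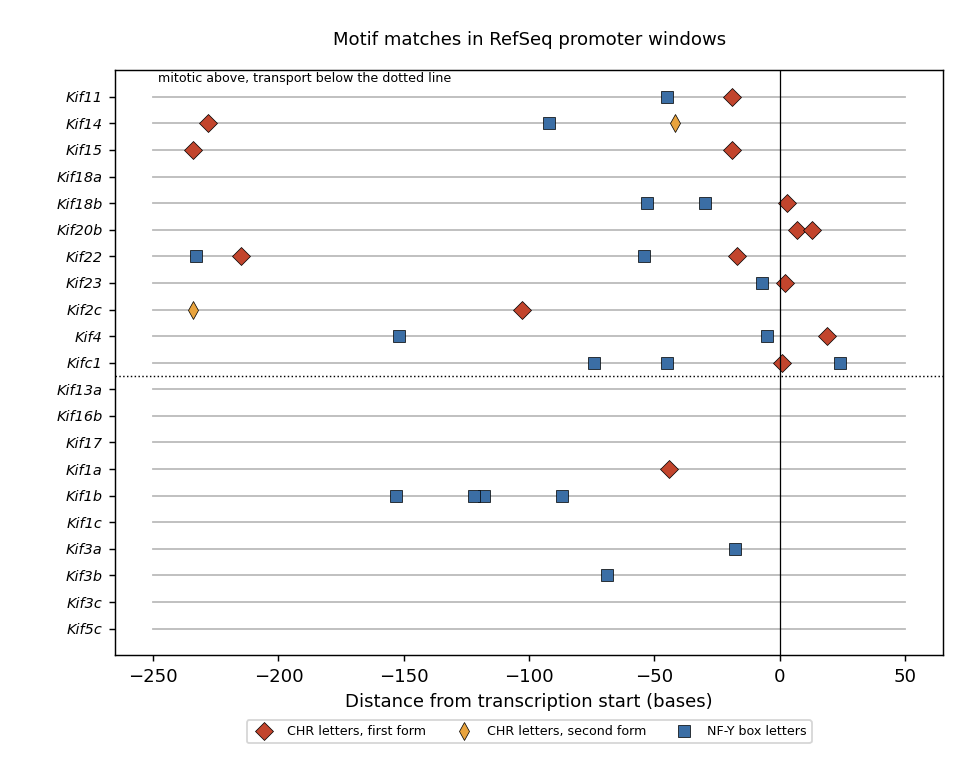
Positions of CHR letters (diamonds; TTTGAA is the first form and TTTAAA the second) and of CCAAT, the NF-Y box letters (squares), in bases from the transcription start, for 11 mitotic kinesins above and 10 transport kinesins below the dotted line. Grey lines are the windows searched. Of the mitotic kinesins 10 carry the first form, and *Kif1a* alone of the transport kinesins; *Kif1a* and *Kif1b* have more than 1 window each, drawn on the same line.

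To ask how the kinesins differed without *Id2*, the genotypes were compared by limma over the 15895 genes that averaged 1 CPM or more, of which 34 were kinesin genes. After Benjamini-Hochberg adjustment 0 genes (0%), kinesins included, came under 0.05, with 0.910 as the lowest adjusted value. Before adjustment limma put 742 genes (4.67%) under 0.05, of which 273 (1.72%) were higher and 469 (2.95%) lower in Id2Δ/Δ HSCs. Differences between genotypes are given below as Id2Δ/Δ minus Id2+/+ in mean log2 CPM (the log2 fold change), with the standard error (SE) from limma. They are therefore described by size, spread and order, and no single gene is called changed.

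The mitotic kinesins lay higher in Id2Δ/Δ than in Id2+/+ HSCs in 11 of 12 cases, with a median difference of 0.31. Over all genes tested, 51.7% were higher and the median was 0.01. For 7 of the 12, *Kif11*, *Kif14*, *Kif15*, *Kif18b*, *Kif20a*, *Kif22* and *Kifc1*, both Id2Δ/Δ libraries lay above both Id2+/+ libraries, which was so for 19.0% of all genes tested, and for 0 of the 12 did both lie below, against 15.8% of all genes. At an unadjusted p-value under 0.05 in limma, 2 mitotic kinesins, *Kif11* and *Kif20a*, were higher (1.72% of all genes) and 0 lower (2.95%). Members of the class share the cell cycle, so their agreement is not 12 independent observations.

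*Kif20a*, a motor of the spindle midzone needed for cytokinesis, had the highest level per kilobase of the mitotic kinesins, 22.1 CPM. It stood at 6.01 and 6.16 log2 CPM in the Id2+/+ libraries and at 6.53 and 6.59 log2 CPM in the Id2Δ/Δ libraries, so the genotypes were separated by more than either pair spread. The log2 fold change was 0.47 (SE 0.14, 95% interval 0.15 to 0.80, unadjusted p = 0.00969 and adjusted p = 0.910, limma). Without each library in turn, the fold change of *Kif20a* stayed between 0.40 and 0.55. *Kif20a* (chromosome 18) shares 1271 annotated exon bases with *Cdc23* on the opposite strand, and whether the counting used strand is not given in the sources used here. *Cdc23*, a subunit of the anaphase-promoting complex, was at 7.21 and 7.43 against 7.54 and 7.64 log2 CPM, a difference of 0.27.

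*Kif11* (ENSMUSG00000012443.3, chromosome 19 from 37376403 to 37421859 on the plus strand, GRCm38) encodes the tetrameric motor that slides antiparallel microtubules apart to make the spindle bipolar. It was at 5.44 and 5.13 log2 CPM in Id2+/+ and at 5.88 and 5.80 log2 CPM in Id2Δ/Δ libraries, with no overlap. The log2 fold change was 0.55 (SE 0.17, 95% interval 0.15 to 0.96, unadjusted p = 0.0136 and adjusted p = 0.910, limma). The *Kif11* transcript is 90.6% identical over 1691 of its 4819 bases to the pseudogene *Gm15697*, and how shared reads were counted is not given in the sources used here. *Kif15*, which can support the same step of spindle building, was at 5.13 and 4.98 against 5.44 and 5.23 log2 CPM. Its genotypes were separated as well, though the difference of 0.28 (SE 0.18) was smaller. Both fold changes kept their sign when each library was left out, between 0.40 and 0.71 for *Kif11* and between 0.18 and 0.39 for *Kif15*.

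Other motors of the midzone and of cytokinesis spread more widely. *Kif14* (ENSMUSG00000041498.13, chromosome 1 from 136466343 to 136531511 on the plus strand), which acts with citron kinase in abscission, had 92 and 127 reads in Id2+/+ and 238 and 179 reads in Id2Δ/Δ libraries. On the log2 CPM scale these were 2.67 and 2.99 against 3.74 and 3.30, the largest mitotic fold change at 0.69 (SE 0.30, unadjusted p = 0.0566 and adjusted p = 0.910, limma). *Kif14* was higher in both Id2Δ/Δ libraries, but replicate 1 differed by 1.06 and replicate 2 by 0.31. *Kif23*, the motor subunit of centralspindlin, was at 5.80 and 6.07 against 6.02 and 6.13 log2 CPM, and *Kif20b* at 5.62 and 5.98 against 5.91 and 5.95. For both genes the Id2Δ/Δ values fell within or close to the Id2+/+ range, with log2 fold changes of 0.14 and 0.13 (SEs 0.16 and 0.17). *Kif4*, a chromokinesin that also shapes the midzone with PRC1, was at 5.10 and 4.53 against 5.02 and 5.30 log2 CPM, so the Id2+/+ libraries differed from each other by more than the genotypes did. *Kif4* shares 832 exon bases with *Pdzd11* on the opposite strand, which had a difference of -0.12 and not one of the same direction as that of *Kif4*, 0.34.

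Motors that act on chromosomes and microtubule ends included the members that differed least. *Kif18b*, a regulator of astral microtubule length, was at 4.94 and 5.37 against 5.68 and 5.49 log2 CPM, without overlap and with a difference of 0.43 (SE 0.20, unadjusted p = 0.0656 and adjusted p = 0.910, limma). *Kif22*, a chromokinesin that helps move chromosome arms, was at 5.65 and 5.57 against 5.67 and 5.90. Its genotypes did not overlap by a margin of 0.02, and the difference in log2 CPM was 0.17 (SE 0.16). *Kif18a*, which dampens chromosome movement at the metaphase plate, was at 4.54 and 4.87 against 4.54 and 4.74 log2 CPM and was the 1 mitotic kinesin that was not higher, with a difference of -0.07 (95% interval -0.56 to 0.42). *Kif2c*, a microtubule depolymerase of the centromere, was at 4.46 and 4.19 against 4.29 and 4.43, with a difference of 0.03 (95% interval -0.46 to 0.53). The interval of *Kif2c* still held a difference as large as that of *Kif20a*, and the interval of *Kif18a* ended below it.

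*Kifc1*, the minus-end-directed motor that focuses spindle poles, was scarce, with 50 and 61 reads in Id2+/+ and 129 and 77 reads in Id2Δ/Δ libraries. Its difference of 0.66 had an SE of 0.41. The *Kifc1* transcript is 96.8% identical over 2312 bases to that of *Kifc5b*, so reads of the 2 genes cannot be separated with confidence. It is also 91.6% to 92.8% identical to 3 pseudogenes over 1421 to 1682 bases. *Kifc5b* had 25 and 66 against 100 and 56 reads, and its genotypes overlapped. Summed over both genes there were 75 and 127 against 229 and 133 reads, or 5.11 and 7.97 against 12.9 and 7.70 CPM, and on this sum the genotypes overlapped. The separation seen for *Kifc1* was thus present only with the paralogs counted apart. Without *Kifc1*, the median of the mitotic list was 0.28.

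**Figure D2:**
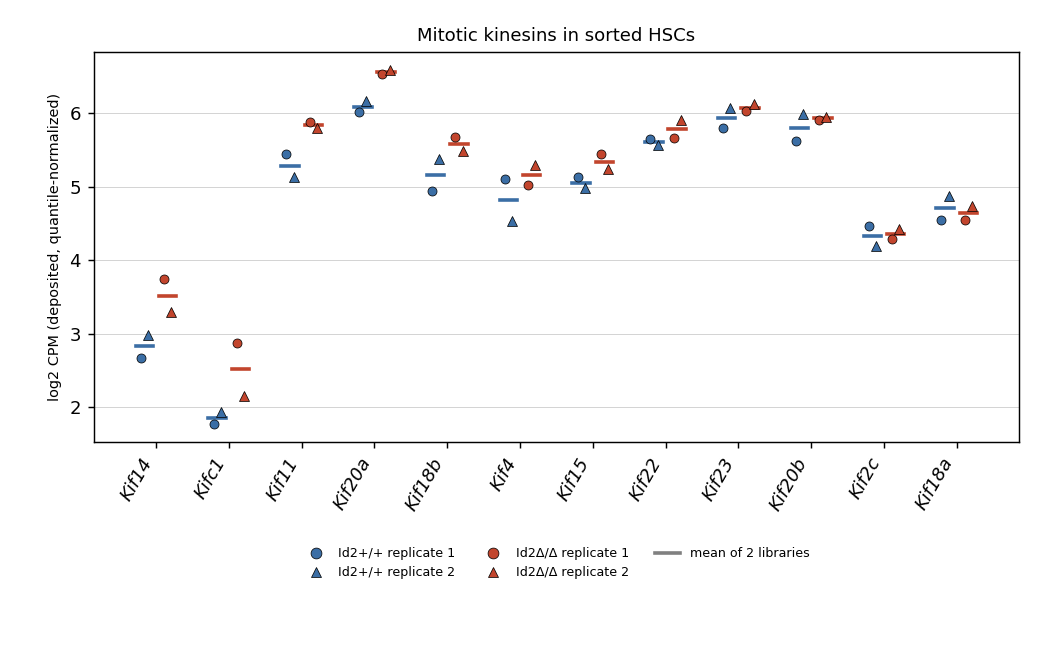
Log2 CPM of the 12 mitotic kinesins in each library (circles replicate 1, triangles replicate 2; blue Id2+/+, red Id2Δ/Δ; bars are the mean of 2 libraries), ordered by fold change from *Kif14* at 0.69 to *Kif18a* at -0.07. Both red points lie above both blue points for 7 genes, against 19.0% of all genes tested.

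Transport kinesins were divided the other way. Of the 13 tested, 3 were higher and 10 lower in Id2Δ/Δ HSCs, with a median difference of -0.08. For 4 of the 13, *Kif13b*, *Kif3a*, *Kif3b* and *Kif5a*, both Id2Δ/Δ libraries lay below both Id2+/+ libraries (15.8% of all genes), and for 1, *Kifc3*, both lay above (19.0% of all genes). At an unadjusted p-value under 0.05 in limma, 0 transport kinesins were higher (1.72% of all genes) and 0 lower (2.95%). Transport kinesins have long transcripts, with a median of 6295 bases against 4246 bases for the mitotic list and 2955 bases over all genes tested. With each library corrected for transcript length the median of the transport list was 0.02 and 7 of 13 were higher, so the direction of this list depended on that correction, while the mitotic median became 0.37 with 12 of 12 higher.

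The conventional kinesins carry organelles along microtubules. *Kif5b*, the widely expressed heavy chain, had the highest level per kilobase of all kinesins and was at 7.33 and 7.61 log2 CPM in Id2+/+ and 7.39 and 7.44 log2 CPM in Id2Δ/Δ libraries. The genotypes overlapped, and the difference in log2 CPM was -0.06 (95% interval -0.37 to 0.26). The heavy chains known mainly from neurons had few reads. *Kif5a* had 57 and 71 reads in Id2+/+ and 12 and 62 reads in Id2Δ/Δ libraries, so its difference of -1.34 (SE 0.76) came mostly from Id2Δ/Δ replicate 1 and was -0.19 without that library. *Kif5c*, under the filter, had 36 and 3 against 0 and 16 reads and showed no order by genotype.

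The subunits of the heterotrimeric motor that serves cilia and membrane traffic were present at 9.55 (*Kif3a*) and 5.28 (*Kif3b*) CPM per kilobase. *Kif3a* was at 4.90 and 5.10 log2 CPM in Id2+/+ and 4.84 and 4.79 in Id2Δ/Δ libraries. *Kif3b*, its partner subunit, was at 4.92 and 5.02 against 4.82 and 4.80. Both were lower without overlap, with log2 fold changes of -0.18 and -0.16 that were about the size of their SEs, both 0.18. *Kif3c*, the alternative partner, was at 5.003 and 4.96 against 5.36 and 4.76 log2 CPM, and its Id2Δ/Δ libraries lay on either side of the controls. *Kifap3*, the accessory subunit that completes this motor, had a difference of 0.25 (SE 0.18).

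Of the motors with membrane-binding tails, *Kif13a* and *Kif16b* differed little and *Kif13b* more. *Kif13a* and *Kif16b*, which move endosomes, followed *Kif5b* among transport kinesins in CPM per kilobase. *Kif13a* was at 6.41 and 6.34 against 6.45 and 6.28 log2 CPM, with a difference of -0.01 (95% interval -0.33 to 0.32). *Kif16b* was at 6.22 and 6.38 against 6.18 and 6.46, with 0.02 (95% interval -0.34 to 0.39). For these 2 genes the difference between genotypes was far smaller than the spread between replicates. *Kif13b* (ENSMUSG00000060012.7, chromosome 14 from 64647265 to 64809617 on the plus strand) was lower, at 4.67 and 4.86 against 4.44 and 4.42 log2 CPM, a difference of -0.33 (SE 0.19, unadjusted p = 0.124 and adjusted p = 0.910, limma). Corrected for its transcript length of 8865 bases, the fold change of *Kif13b* was -0.20. *Kif1b*, a carrier of mitochondria and vesicles, was at 5.42 and 5.79 against 5.51 and 5.46 log2 CPM, with overlap.

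The remaining transport kinesins were scarce or overlapped. *Kif17* was at 3.91 and 3.77 against 3.51 and 4.13 log2 CPM. *Kif1c* had 38 and 77 reads in Id2+/+ and 88 and 38 reads in Id2Δ/Δ libraries, and *Kifc2* had 86 and 48 against 37 and 72. In these 3 genes the order of the libraries differed between the replicate numbers. *Kifc3*, a minus-end-directed motor, had 12 and 4 reads in Id2+/+ against 32 and 30 reads in Id2Δ/Δ libraries. Its difference of 2.17 (SE 0.96, unadjusted p = 0.0570 and adjusted p = 0.910, limma) was the largest of any kinesin, rests on few reads, and belongs to a gene that passed the filter only through the Id2Δ/Δ libraries. Without *Kifc3* the median of the transport list was -0.10.

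**Figure D3:**
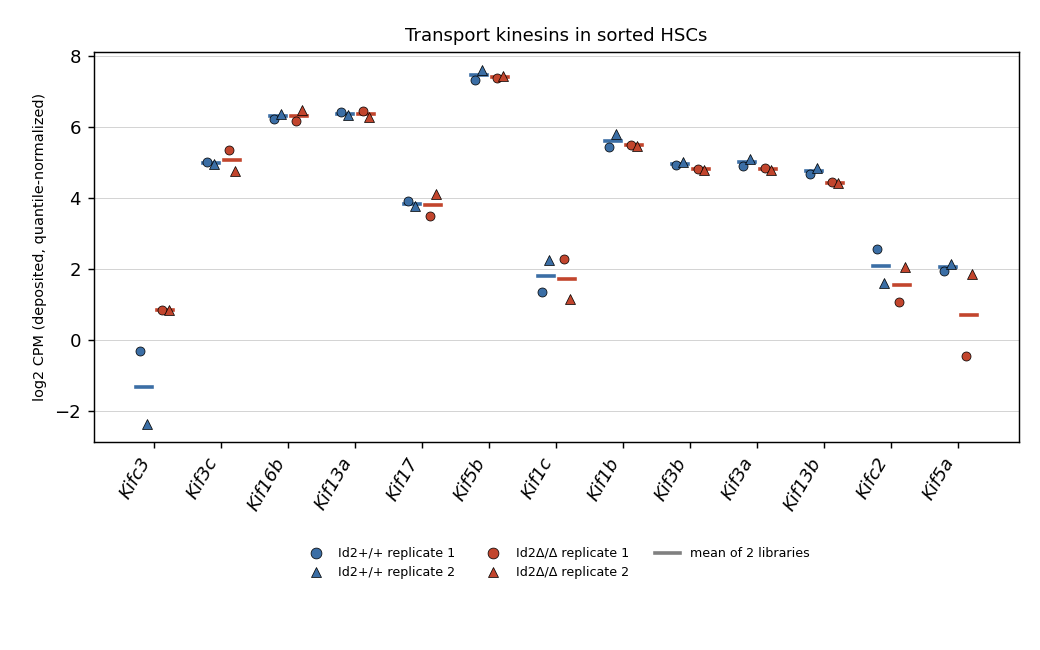
Log2 CPM of the 13 transport kinesins tested, drawn as for the mitotic kinesins (circles replicate 1, triangles replicate 2; blue Id2+/+, red Id2Δ/Δ; bars are the mean of 2 libraries) and ordered by fold change from *Kifc3* at 2.17 to *Kif5a* at -1.34. *Kif5b*, *Kif13a* and *Kif16b* differ little between genotypes, and the gaps wider than 1 belong to genes such as *Kifc3* and *Kif5a*.

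The classes were then set against each other. The median log2 fold change of the mitotic list exceeded that of the transport list by 0.40, and the 21 motors tested outside the mitotic list had a median of -0.06. Summed over the 12 genes, mitotic kinesins reached 418 and 440 CPM with *Id2* against 518 and 528 CPM without it, and did not overlap. The 14 transport kinesins summed to 511 and 568 CPM against 514 and 518 CPM, with overlap. Within each library, mitotic over transport kinesins gave a ratio of 0.817 and 0.775 in Id2+/+ and 1.01 and 1.02 in Id2Δ/Δ HSCs. This ratio does not depend on any single factor that scales a whole library. The quantile normalization of the deposited values is not such a factor, and the ratio was not corrected for transcript length. With 2 libraries per genotype an exact permutation test cannot give a two-sided p-value below 0.333, so no test of the ratio was made.

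**Figure D4:**
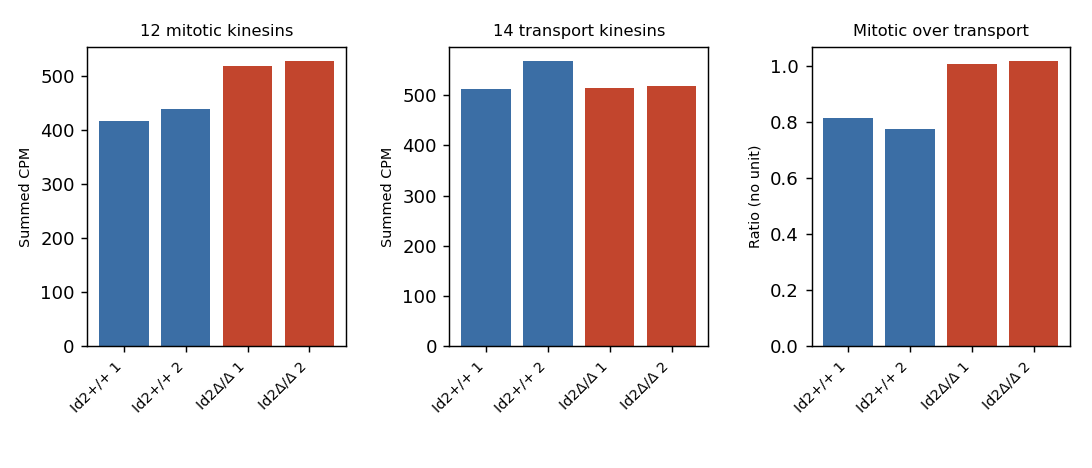
Summed CPM of the 12 mitotic kinesins (left) and of 14 transport kinesins (middle) and their ratio (right) in each library, 1 bar per library with no error bar, blue for Id2+/+ and red for Id2Δ/Δ. The mitotic sum is 418 and 440 in blue against 518 and 528 in red, and the ratio 0.817 and 0.775 against 1.01 and 1.02.

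Replicates of the same number, although the labels do not pair them, can be compared as well. Between the replicate 1 libraries, 9 of 12 mitotic kinesins were higher in Id2Δ/Δ HSCs with a median log2 difference of 0.30, and between the replicate 2 libraries 10 of 12 with a median of 0.25. Over all genes tested the medians were 0.01 and 0.02. For transport kinesins the medians were -0.04 and -0.19. Relative to each gene's mean over the 4 libraries, the median mitotic kinesin stood at -0.17 and -0.16 in the Id2+/+ libraries and at 0.13 and 0.12 in the Id2Δ/Δ libraries. Between replicates of a genotype, the median difference of replicate 2 from replicate 1 was 0.16 for mitotic kinesins in Id2+/+ and 0.05 in Id2Δ/Δ libraries. For single genes the median absolute difference between replicates was 0.29 within Id2+/+ and 0.20 within Id2Δ/Δ mitotic values, so the Id2+/+ replicates of a gene differed about as much as the genotypes did.

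The 9 other motors regulate microtubule ends, cilia and centrioles or have unsettled roles, and 8 were tested. Of these 5 were higher and 3 lower in Id2Δ/Δ HSCs, with a median of 0.03. An unadjusted p-value under 0.05 in limma was found for 0 of them (4.67% of all genes). In 1 of them, *Kif6*, both Id2Δ/Δ libraries lay below both Id2+/+ libraries, at 40 and 47 against 33 and 31 reads (15.8% of all genes), and in 0 did both lie above (19.0%). The highest level per kilobase was that of *Kif2a*, a depolymerase of the same subfamily as *Kif2c* that works in spindles and in resting cells. *Kif2a* was at 6.01 and 6.19 log2 CPM in Id2+/+ and at 6.47 and 5.80 log2 CPM in Id2Δ/Δ libraries, so the Id2Δ/Δ replicates lay on either side of the controls. *Kif21b*, which limits microtubule growth and is known from lymphocytes and neurons, behaved alike at 5.70 and 5.12 against 5.98 and 4.88 log2 CPM. Over the 8 genes, Id2Δ/Δ replicate 2 lay below Id2Δ/Δ replicate 1 in 6, with a median difference of -0.66, while the same median for the mitotic list was 0.05. The differences of *Kif21a* (-0.45), *Kif24* (-0.06), *Kif7* (0.04), *Kif9* (0.42) and *Kifc5b* (0.68) were between genotypes whose libraries overlapped. *Kif19a*, under the filter, had 9 and 22 reads in Id2+/+ and 0 and 6 reads in Id2Δ/Δ libraries. *Kif1bp*, the kinesin-binding protein, was at 5.25 and 5.35 against 5.24 and 5.55 log2 CPM, with a difference of 0.09.

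**Figure D5:**
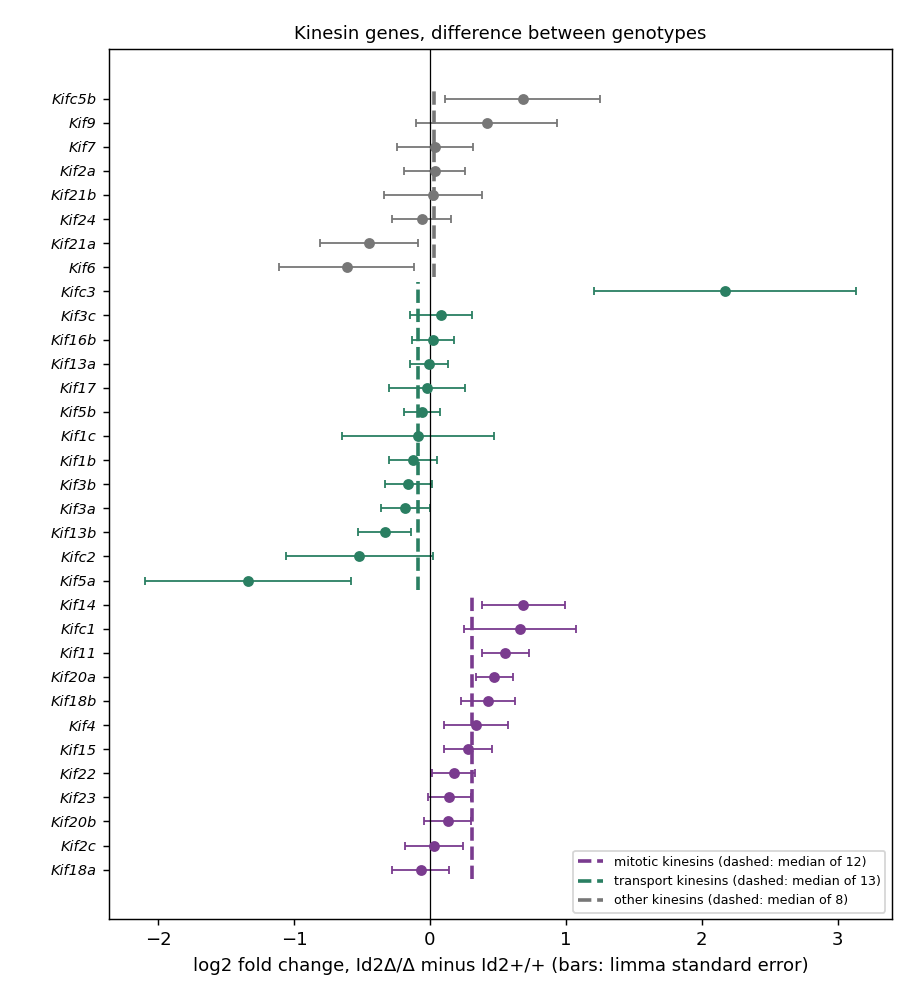
Log2 fold change (Id2Δ/Δ minus Id2+/+) of the 33 motors tested, with limma SEs as bars, for mitotic (purple), transport (green) and other kinesins (grey), with the median of each class dashed at 0.31, -0.08 and 0.03. All mitotic points but *Kif18a* lie right of 0, and the widest bars belong to scarce genes such as *Kifc3* and *Kif5a*.

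Levels of different motors were ordered per kilobase of the longest annotated transcript, as mean CPM over the 4 libraries. On this scale *Kif5b* led with 28.9 CPM per kilobase, followed by *Kif20a* at 22.1, *Kif23* at 19.0, *Kif22* at 14.5 and *Kif2a* at 13.3. Next came *Kif18b* at 12.6, *Kif16b* at 12.4, *Kif13a* at 12.1, *Kif20b* at 10.5 and *Kif11* at 10.01 CPM per kilobase. Neighbors from *Kif22* to *Kif13a* are closer than their replicates spread, and the order depended on genotype. In Id2+/+ alone *Kif18b* was at 10.8, below *Kif16b* (12.3) and *Kif13a* (12.1), and *Kif11* was at 8.14, below *Kif3a* (10.2). In Id2Δ/Δ alone *Kif18b* was at 14.4, *Kif11* at 11.9 and *Kif3a* at 8.93 CPM per kilobase. In both genotypes *Kif20a*, *Kif23* and *Kif22* thus lay between the transport motors *Kif5b* and *Kif16b*. The level of *Kif20a* may include reads of *Cdc23*, with which it shares 1271 exon bases on the opposite strand. Other mitotic kinesins were lower, with *Kif15* at 7.59, *Kif2c* at 7.15, *Kif4* at 6.48, *Kif18a* at 3.9 and *Kifc1* at 2.0 CPM per kilobase. At the low end were *Kif14* at 1.05, *Kif6* at 0.666, *Kif1c* at 0.544, *Kif5a* at 0.504, *Kifc3* at 0.340, *Kif19a* at 0.176 and *Kif5c* at 0.133 CPM per kilobase.

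Genes that work with the mitotic kinesins were read from a list of 23, including *Cenpe*, a mitotic kinesin under another symbol, the chromosomal passenger complex and mitotic cyclins. Of these, 20 were higher in Id2Δ/Δ HSCs, with a median difference of 0.30. In 15 both Id2Δ/Δ libraries lay above both Id2+/+ libraries (19.0% of all genes) and in 1, *Numa1*, both lay below (15.8%). At an unadjusted p-value under 0.05 in limma 7 were higher (1.72% of all genes) and 0 lower (2.95%). The paper had already reported higher *Ccnb1*, *Ccnb2* and *Cdk1* in RNA-Seq of Id2Δ/Δ HSCs. This list was chosen with earlier results of these data known, so its counts are no independent support. *Ccnb1*, a cyclin that drives entry into mitosis, was at 5.83 and 5.70 against 6.30 and 6.23 log2 CPM, with a difference of 0.50 (SE 0.14). *Ccnb2* was at 5.50 and 5.75 against 6.14 and 6.17. *Cenpe*, which carries chromosomes to the metaphase plate, was at 5.29 and 5.35 against 6.27 and 5.66 log2 CPM, a difference of 0.65 (SE 0.22) that was larger in replicate 1 and was 0.34 without Id2Δ/Δ replicate 1. Proteins that tether kinesin tracks and cross-link the midzone did not all follow. *Prc1* had a difference of 0.42, whereas *Racgap1*, the partner of *Kif23* in centralspindlin, and *Ect2*, which it recruits, were at -0.06 and -0.12.

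The adaptors that link transport kinesins to cargo stayed near the level of all genes. Of 23 listed, 20 were tested, with 12 higher and 8 lower and a median difference of 0.03. Both Id2Δ/Δ libraries lay above both Id2+/+ libraries in 6 (19.0% of all genes) and below in 2 (15.8%), and 1, *Hap1*, had an unadjusted p-value under 0.05 in limma (4.67% of all genes). *Hap1*, a huntingtin-associated adaptor, was scarce and passed the filter only through the Id2Δ/Δ libraries, at 0.14 and -1.05 against 1.18 and 1.49 log2 CPM. *Rhot1*, the mitochondrial anchor for kinesin, was at 6.76 and 6.91 against 7.005 and 7.10 log2 CPM, with a difference of 0.22 (SE 0.13), and *Arl8a*, which recruits kinesin to lysosomes, was at 5.33 and 5.38 against 5.77 and 5.51 with a difference of 0.29 (SE 0.17).

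Cytoplasmic dynein, the motor that moves the opposite way to most kinesins, was examined over 24 tested genes of 25. Of these 14 were higher and 10 lower, with a median difference of 0.02, and the libraries did not overlap for 5 above (19.0% of all genes) and 3 below (15.8%), shares close to those of all genes. *Dync1h1*, the heavy chain, was the 1 gene with an unadjusted p-value under 0.05 (4.67% of all genes). It was at 8.26 and 8.25 log2 CPM in Id2+/+ and at 7.86 and 7.84 log2 CPM in Id2Δ/Δ libraries, a difference of -0.40 (SE 0.10, unadjusted p = 0.00530 and adjusted p = 0.910, limma). Corrected for its transcript length of 14342 bases, the fold change of *Dync1h1* was -0.20. *Nde1*, a dynein regulator used in mitosis, was at 6.44 and 6.39 against 6.80 and 6.64 log2 CPM, a difference of 0.30 (SE 0.13), and *Bicd2*, a cargo adaptor, was lower with a difference of -0.48 (SE 0.21), for which 5.52 and 6.16 log2 CPM in Id2Δ/Δ stood against 6.32 and 6.33.

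Tubulin genes, which encode the track itself, gave 9 higher and 2 lower of 11 tested, with a median difference of 0.22. Both Id2Δ/Δ libraries lay above both Id2+/+ libraries in 6 (19.0% of all genes), and below in 1, *Tubb4a* (15.8%). *Tubb5* was at 8.67 and 8.70 against 8.97 and 8.86 log2 CPM, with a difference of 0.23 (SE 0.10). *Tuba8* was at 4.53 and 4.59 against 5.46 and 5.07 log2 CPM, a difference of 0.71 (SE 0.20, unadjusted p = 0.00879 and adjusted p = 0.910, limma), and *Tuba4a*, known from platelets, was at 7.66 and 7.88 against 8.13 and 7.97 with a difference of 0.28 (SE 0.13).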

How the data were processed

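RNA-Seq libraries of sorted HSCs, 2 Id2+/+ and 2 Id2Δ/Δ, were used as deposited, grouped by the sample labels. The authors deposited log2 CPM values for 19354 genes in 4 columns, all used, whose unit was read from the values. The columns sum to 999980 to 999996 CPM, and in 88.4% of ranks the 4 sorted values lie within 0.1, as after quantile normalization. The submitters' processing notes name CASAVA 1.8.4, Trimmomatic 0.30, TopHat2 2.0.8, RSEM, STAR and the builds mm9 and NCBIM37, with no role. The gene filter, strand use and treatment of shared reads are not given in the sources used here.

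Below 32 CPM, the rank of a distinct value in a library is its number of reads, which also gave the depth. This step and the test were checked on simulated data. The 15895 genes that averaged 1 CPM or more entered limma 3.58.1 under R 4.3.3 (lmFit, then eBayes with trend set), and the model held genotype alone. Tests were two-sided, with Benjamini-Hochberg adjustment over all genes tested and a threshold of 0.05. No pseudocount was added. No count model was run, since reads are recovered only at low values. Precision is limited by 2 libraries per genotype.

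Gene coordinates and longest transcripts come from the GRCm38 annotation GENCODE M21, in which 99.7% of the table's Ensembl identifiers were found (82% with the same version). The table itself has no coordinates. Promoter windows are from RefSeq on GRCm38.p6, matched by symbol. Transcripts at least 90% identical over at least 500 bases were sought with BLAST. The alternatives varied the pseudocount, scaling, filter, trend, replicate term, transcript length and the libraries included. The members and lists were chosen with earlier results of these data known. Values were given in every library for mitotic and tested transport kinesins, for other kinesins at an unadjusted p-value under 0.05 or the highest level, and for up to 3 genes with the smallest p-value of each other list. The other kinesins without such values were given by their differences or reads, and *Kif21b*, *Kif6*, *Kif19a*, *Kifc5b*, *Kif1bp*, *Camp*, *Lcn2*, *Ltf*, *Ngp*, *S100a8*, *S100a9*, *Gm15697*, *Cdc23*, *Pdzd11*, *Prc1*, *Racgap1*, *Ect2*, *Numa1*, *Tubb4a* and *Kifap3* were named outside that rule, after their values were seen. The same holds for *Elane*, *Mpo*, *Prtn3*, *Pf4*, *Gp9*, *Gp1bb*, *Ppbp*, *Itga2b*, *Vwf*, *Cd34*, *Flt3*, *Cd48* and *Cdk1*.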

Additional observations from a re-analysis of the deposited data

How the results depend on the processing

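Each choice was varied alone, except where 2 are named. Of 466 recomputed differences of single kinesins, 430 kept their sign, and 36, from 16 genes, changed it; of 119 recomputed medians and counts, 22 moved. The mitotic median (0.31) was 0.302 with a pseudocount of 1, 0.299 after median-ratio rescaling, 0.229 over genes with a mean of 10 CPM or more, 0.369 with length correction, 0.283 less *Kifc1*, and 0.355 without genes that share an exon on the opposite strand. The last 2 alternatives were chosen after seeing the data. The difference between the mitotic and transport medians (0.40) was 0.284 over genes with a mean of 10 CPM or more. The replicate numbers were not shown to pair the libraries, since same-numbered libraries deviated together with a correlation of 0.0592 over all genes tested, though of 0.144 over genes at 32 CPM or more, and only 2 pairs exist. With a replicate block, alone or with length correction, 1 gene (no kinesin) passed the adjusted threshold, against 0 without it. Before adjustment, 925 genes with the block and 742 without it had p-values under 0.05, and the block left the fold changes as they were. Length correction gave 0.015 for the transport median, 0.030 for *Kif5b*, 0.015 for *Kif1c*, 0.095 for *Kif13a*, 0.027 for *Kif18a*, 0.017 for *Kif24* and 0.031 for *Kif1b*, all now above 0, and together with the replicate block it gave the same values. The cause was not tested.

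Leaving out each library in turn gave 0.288 to 0.298 for the mitotic median, -0.195 to -0.042 for the transport median, 0.340 to 0.482 for their difference and 0.016 to 0.098 for the adaptors. The lowest transport median and the highest difference and adaptor median were without Id2+/+ replicate 1. The sign changed for *Kif5b* (-0.195 to 0.084), *Kif3c* (-0.215 to 0.377), *Kif1c* (-0.653 to 0.485), *Kif13a* (-0.097 to 0.082), *Kif2a* (-0.300 to 0.369), *Kif20b* (-0.053 to 0.316), *Kif18a* (-0.236 to 0.098), *Kif2c* (-0.101 to 0.168), *Kif17* (-0.334 to 0.286), *Kif9* (-0.352 to 1.188), *Kif1bp* (-0.058 to 0.246), *Kif16b* (-0.120 to 0.169), *Kif21b* (-0.525 to 0.571), *Kif7* (-0.124 to 0.196) and *Kif1b* (-0.309 to 0.061). With 1 library left in a genotype, that library is assumed to vary like the other genotype. A count of 0 reads allows 3 reads, or 0.165 to 0.207 CPM by library.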
